A study of Sus scrofa with 20 samples.

Results

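Pig snout skin carried high RNA levels of 7 genes better known from moist linings such as those of mouth, esophagus, airway and cornea: the keratins KRT24 and KRT3, the barrier protein CRNN, the proteases TMPRSS11D, TMPRSS11A and KLK12, and the claudin CLDN17. The 7 genes were taken by symbol, all 7 had a row among the 19280 genes of the table, and they were chosen by their high levels in snout libraries, so their snout levels are a description with no test. Of the 7, KRT3, TMPRSS11A and KLK12 were also raised in the hairless sole of the foot relative to haired skin, CLDN17 was lower there, CRNN was lower there than in dorsal foot skin, and KRT24 and TMPRSS11D were near 0 outside the snout.

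The study profiled 4 mm punch biopsies of wild-type female Yorkshire pigs by stranded mRNA sequencing at 4 skin sites (snout, volar foot, dorsal foot and flank), with 1 library per site from each of 5 pigs, giving 20 libraries. Pigs were 4, 5, 6, 7 and 8 months old and are named here by age; no treatment or transgene was given, and each biopsy mixes epidermis, dermis, hair follicles and whatever lies beneath. Library numbers fall into 2 ranges, called here the first set (12 libraries, pigs of 4, 7 and 8 months) and the second set (8 libraries, pigs of 5 and 6 months). The labels of the second set did not go with expression in the first. With the 7 genes and all gene lists used here left out, each of the 8 second-set libraries correlated best with a first-set site other than its own label: labelled volar with snout, labelled flank with volar, labelled snout with dorsal and labelled dorsal with flank, with best Pearson r of 0.755 to 0.866 over 2000 genes. The next best r came close where dorsal and flank compete (0.789 against 0.718 for the 6-month library labelled dorsal). Site genes ran the same way: EN1, the homeobox gene of ventral limb skin, was at 9.03 to 14.7 CPM (counts scaled to library size) in first-set volar and 14.5 to 19.96 in labelled flank, and at most 3.37 elsewhere. ALX1, a homeobox gene of the face, was at 18.2 to 18.7 CPM in first-set snout and 19.0 to 19.4 in labelled volar. No library was moved: tests were run within each set on the deposited labels, and the matched site is given beside them. Results below are therefore stated for each set apart, and the word sole covers first-set volar libraries and second-set libraries labelled flank.

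In squamous epithelium, keratins of the basic type pair with keratins of the acidic type to form the filament network, and the pair in use changes with body site and with the wet or dry state of the surface. Membrane-anchored proteases of the TMPRSS11 family and secreted kallikreins cut proteins between cells near the surface, while claudins set what passes between cells. Levels are given as CPM scaled by trimmed mean of M values (TMM), so a level can be compared between libraries of 1 gene, not between genes, since gene lengths were not used. In bulk biopsies, fewer cells of a type and less RNA per cell cannot be told apart.

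KRT24 (ENSSSCG00000017465), an acidic keratin, had the widest margin of the 7 between the snout libraries and the rest. Its level was 17182, 9662 and 12308 CPM in snout of the pigs aged 4, 7 and 8 months, and 14947 and 13989 CPM in the libraries labelled volar of the pigs aged 5 and 6 months, which match snout. No other library exceeded 1.04 CPM. In first-set volar it stood at 0.704, 0.287 and 0.134 CPM, in dorsal at 0.0927, 0.0800 and 0.206, and in flank at 0.947, 0.211 and 0.0922 for the same order of ages. The lowest of the 5 snout and snout-matched libraries was 9288-fold above the highest of the other 15 libraries. The count behind first-set snout was 2488310 in 3 libraries, against 61 in flank.

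KRT3 (ENSSSCG00000023254), a basic keratin that in human cornea pairs with KRT12, was the member whose snout and sole levels came closest. Its level was 30096, 22444 and 28043 CPM in snout (4, 7 and 8 months), against 4599, 10563 and 21743 CPM in volar. Haired skin lay far lower, at 2.95, 4.53 and 43.7 CPM in dorsal and 1.39, 4.86 and 2.81 CPM in flank. In the second set, labelled volar had 18524 and 22997 CPM (5 and 6 months), labelled flank 1474 and 8335, labelled snout 15.03 and 5.46, and labelled dorsal 10.2 and 1.04. Snout was above volar in each pig, but across pigs the groups came close to each other: the 8-month volar library was above the lowest snout-matched library, that of the 5-month pig. KRT12, the corneal partner, averaged 0.166 ± 0.111 CPM in snout and 0.374 ± 0.290 CPM in volar (SD, n = 3 each).

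CRNN (ENSSSCG00000006604) encodes cornulin, an S100 fused-type protein abundant in human esophageal epithelium. It was at 267, 441 and 384 CPM in snout and 632 and 329 CPM in labelled volar. Haired skin held a low level, 14.6, 8.28 and 14.3 CPM in dorsal and 3.56, 8.29 and 4.58 CPM in flank. The sole was lowest, at 1.66, 4.69 and 1.90 CPM in volar and 4.57 and 3.89 CPM in labelled flank. By first-set means the order was snout, dorsal, flank and volar, with the ranges of dorsal and flank touching and those of flank and volar overlapping.

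TMPRSS11D (ENSSSCG00000008926), known in human as airway trypsin-like protease, was close to absent outside the snout. It was at 139, 119 and 110 CPM in snout and 138 and 133 CPM in labelled volar, and at or below 0.144 CPM in all other libraries. First-set volar held 0, 0.0261 and 0.0575 CPM, which is 4 counts over 3 libraries. TMPRSS11A (ENSSSCG00000008927), a related membrane serine protease, was at 123, 123 and 142 CPM in snout and 174 and 178 CPM in labelled volar. Unlike TMPRSS11D it kept a middle level in the sole, 13.6, 34.3 and 44.5 CPM in volar and 7.96 and 39.1 CPM in labelled flank. In haired skin it ran from 0.208 to 3.82 CPM.

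KLK12 (ENSSSCG00000032280), a secreted serine protease of the kallikrein family, was at 114, 115 and 185 CPM in snout and 171 and 137 CPM in labelled volar. The sole held 4.12, 5.89 and 1.99 CPM in volar and 10.6 and 7.19 CPM in labelled flank. Haired libraries lay between 0.538 and 1.25 CPM, below every sole library. CLDN17 (ENSSSCG00000012031), a claudin known in cultured kidney cells to form an anion channel, was at 18.0, 18.4 and 25.7 CPM in snout and 19.9 and 28.0 CPM in labelled volar. Haired skin held 1.10, 3.42 and 3.87 CPM in dorsal, 1.55, 0.0301 and 1.21 CPM in flank, 5.23 and 3.51 CPM in labelled snout and 2.15 and 5.43 CPM in labelled dorsal. No volar library of the first set held a count, and the labelled flank libraries held 1 count each.

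**Figure D1:**
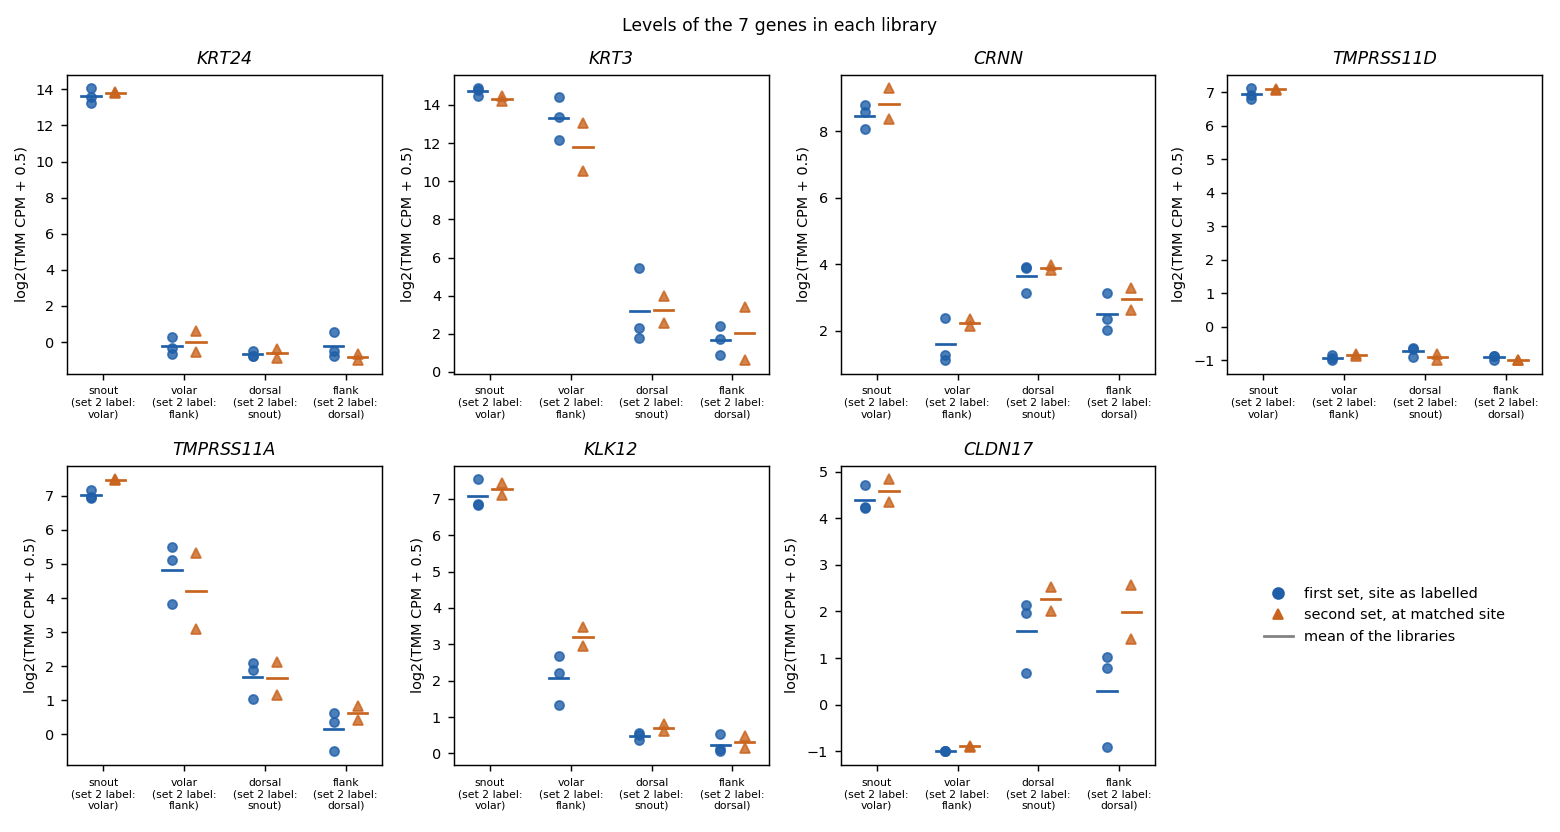
Level of each of the 7 genes as log2(TMM CPM + 0.5) in every library, by site: circles are first-set libraries at their labelled site, triangles second-set libraries placed at the site they match with their own label beneath, and short lines are means. The snout column is highest in every panel, the volar column is raised for KRT3, TMPRSS11A and KLK12, and it is lowest for CRNN and CLDN17.

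Within pigs, all 7 genes were higher in the snout or snout-matched library than in each of the other libraries in 5 of 5 pigs. By the lowest pig, the smallest margins on the log2(CPM + 0.5) scale were those of KRT3 against the sole (0.37 to 3.65 over pigs), TMPRSS11A against the sole (1.67 to 4.37) and CLDN17 against dorsal or its match (1.83 to 3.54). KRT24 differed from the sole by 13.15 to 14.44 on that scale. The largest fold across the 5 snout and snout-matched libraries was 2.37, for CRNN, and the smallest was 1.26, for TMPRSS11D. The 7 genes passed the filter on low counts in both sets, and in each snout comparison all snout or labelled volar libraries lay above all libraries of the other group. Since those contrasts chose the genes, nothing is read from that. Of all genes tested, 7.77% were higher in snout than in flank, 5% than in dorsal and 5.85% than in volar. In the second set 7.61% were higher in labelled volar than in labelled dorsal, 6.49% than in labelled snout and 20.9% than in labelled flank.

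Skeletal muscle RNA differed widely among the same snout libraries, so the 7 genes were set against it. The summed level of 14 muscle genes, among them ACTA1 and MYL1, was 15.5, 12226 and 11.4 CPM in snout (4, 7 and 8 months) and 5470 and 9355 CPM in labelled volar, against at most 162 CPM in any other library. The 4-month and 8-month snout libraries, with almost no muscle RNA, differed from the other 3 in KRT3, which was at 30096 and 28043 CPM in them and at 18524 to 22997 CPM in the others. For the other 6 genes the ranges of these libraries overlapped, as with TMPRSS11D at 139 and 110 CPM in the muscle-poor libraries and 119 to 138 CPM in the others. Hair follicle genes summed to 347 to 1107 CPM in snout and 678 to 1249 CPM in labelled volar. These sums were above the 3.28 to 17.3 CPM of first-set volar and below the 5985 to 15514 CPM of dorsal. They overlapped the 514 to 7754 CPM of flank. Labelled flank summed to 33.8 and 284 CPM, the second close to the lowest snout library. Labelled snout and labelled dorsal summed to 6703 CPM or more. The 14 gland genes measured summed to 54.4 to 115 CPM in snout and 86.9 to 92.0 CPM in labelled volar. The sums were 506 to 2118 CPM in volar, 4107 to 5385 CPM in labelled flank, 105 to 158 CPM in dorsal and 137 to 246 CPM in flank. Most of the snout sum and nearly all of the volar sum was the water channel AQP5, at means of 64.7 and 1354 CPM. Of 10 gland genes tested, only AQP5 was higher in volar than in flank and 6 were lower, beside 16.9% and 16% of all genes. In snout against flank 2 of the 10 were higher and 1 lower, beside 7.77% and 5.46% of all genes. Against volar 2 were higher and 2 lower, beside 5.85% and 5.71%. PIGR and CA6 were the higher ones, at 2.04 and 8.79 CPM in snout against 0.137 and 0.096 CPM in volar (edgeR adjusted p = 0.00604 and 0.00126). AQP5 and KRT77 were the lower ones. BPIFA1 and BPIFB1, secreted by airway and salivary glands, held no count in any snout or labelled volar library, nor in volar or flank. The 8 airway genes summed to 57.0 to 217 CPM in snout and 55.0 to 226 CPM in volar, of which TPPP3 made 144 and 156 CPM by mean, while the cilia regulator FOXJ1 averaged 0.093 CPM in snout and 0.017 CPM in volar. The part of muscle, hair and gland RNA in the levels of the 7 genes was not tested.

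**Figure D2:**
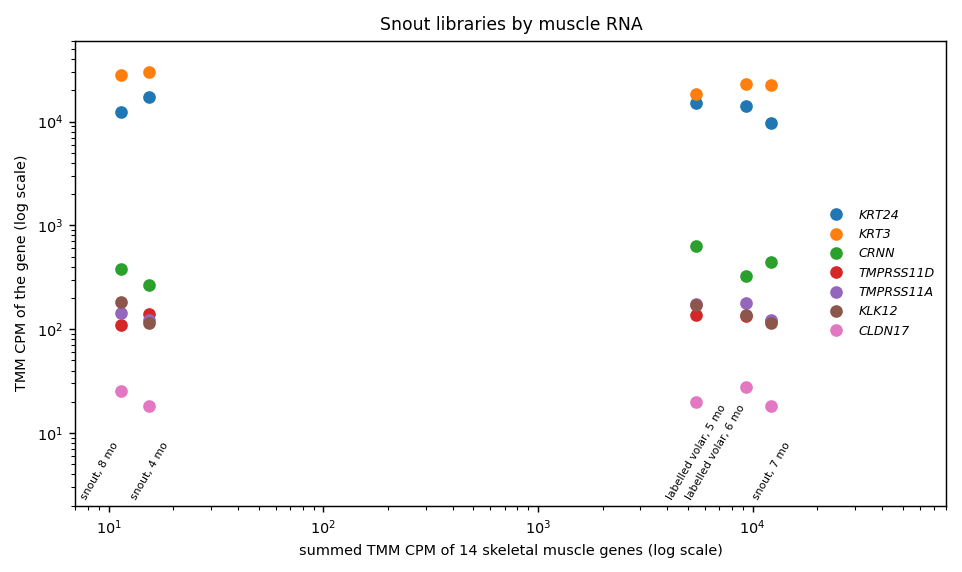
Level of each gene (TMM CPM, log scale) against the summed level of 14 skeletal muscle genes (TMM CPM, log scale) in the 3 snout libraries of the first set and the 2 labelled volar libraries of the second; each point is 1 library and colour marks the gene. KRT3 is higher in the libraries with muscle sums of 11.4 and 15.5 CPM than in those with sums of 5470 CPM and more, and the ranges of the other 6 genes overlap.

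Whether the 7 genes are shared with the sole was asked in contrasts that hold no snout library, where they can be tested. KRT3, TMPRSS11A and KLK12 were higher in sole than in haired skin in all 4 such contrasts. Their groups did not overlap in any, but the share of all genes without overlap was not counted, so nothing is read from that. KRT3 was higher in volar than in flank by a log2 fold change of 11.99 ± 1.42 (SE, edgeR adjusted p = 0.000205) and than in dorsal by 9.53 ± 1.30 (edgeR adjusted p = 0.000653). Means were 12302 ± 8703 CPM in volar, 17.1 ± 23.1 in dorsal and 3.02 ± 1.75 in flank (SD, n = 3 each). These contrasts share the volar libraries and do not stand apart from each other. In the second set, KRT3 was higher in labelled flank than in labelled dorsal by 9.75 ± 1.55 (edgeR adjusted p = 0.00244) and than in labelled snout by 8.92 ± 1.5 (edgeR adjusted p = 0.00356).

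TMPRSS11A had a smaller difference in the same direction. It was higher in volar by 5.45 ± 0.60 than in flank (edgeR adjusted p = 0.00012) and by 3.47 ± 0.53 than in dorsal (edgeR adjusted p = 0.00114), and in labelled flank by 4.50 ± 0.81 than in labelled dorsal and 3.11 ± 0.74 than in labelled snout (edgeR adjusted p = 0.00408 and 0.0142). KLK12 was higher in volar by 2.55 ± 0.38 than in flank and 2.17 ± 0.37 than in dorsal (edgeR adjusted p = 0.00069 and 0.00197). In labelled flank KLK12 was higher by 3.60 ± 0.29 than in labelled dorsal and 2.99 ± 0.28 than in labelled snout (edgeR adjusted p = 0.0002 and 0.00037). Sole was the site where many genes moved: of all genes tested, 16.9% were higher in volar than in flank, 14% than in dorsal, 21.4% in labelled flank than in labelled dorsal and 20.4% than in labelled snout. The 3 genes that passed upwards are 3 of 7.

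CLDN17 went the other way. With no count in volar, its level there was at least 40.4-fold below the flank mean and at least 122-fold below the dorsal mean, taking 3 counts over the group as the floor, and edgeR adjusted p was 0.0140 and 0.00601. The 7-month flank library itself held 2 counts, so the flank mean rests on the 4-month and 8-month libraries. In the second set, labelled flank held 2 counts in all, against 331 in labelled dorsal, a level 88.2-fold lower (95% counting interval 24.2 to 732, edgeR adjusted p = 0.00082), and against 486 in labelled snout, a level 115-fold lower (31.6 to 950, edgeR adjusted p = 0.00085). CRNN was lower in volar than in dorsal, with a log2 fold change of -2.16 ± 0.44 (edgeR adjusted p = 0.00522), and in labelled flank than in labelled snout, with -1.75 ± 0.36 (edgeR adjusted p = 0.00826). Against flank and labelled dorsal the CRNN values were -1.01 ± 0.43 and -0.81 ± 0.36 and did not pass (edgeR adjusted p = 0.0952 and 0.109). Without the 7-month volar library CRNN passed against flank (-1.61, edgeR adjusted p = 0.0175), and with limma-voom CLDN17 in volar against flank did not (adjusted p = 0.0883). Over all genes, 16% were lower in volar than in flank, 10.1% in volar than in dorsal, 25.3% in labelled flank than in labelled dorsal and 22.6% than in labelled snout.

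KRT24 did not pass in any of the 4 contrasts. It was at -0.09 ± 0.78 in volar against flank and 1.61 ± 0.88 against dorsal (edgeR adjusted p = 0.948 and 0.215), and at 2.94 ± 1.19 in labelled flank against labelled dorsal and 1.74 ± 1.00 against labelled snout (edgeR adjusted p = 0.0811 and 0.204). The labelled flank and labelled dorsal libraries did not overlap, and nothing is read from that either. These values rest on 46 counts in volar, 22 in dorsal and 61 in flank, and on 28 in labelled flank, 19 in labelled snout and 7 in labelled dorsal. TMPRSS11D passed the filter on low counts through its snout libraries alone. With 4 counts in volar, 19 in dorsal and 5 in flank, and 3, 3 and 0 in labelled flank, labelled snout and labelled dorsal, a difference between sole and haired skin was not detectable at this depth. Among the sole libraries themselves, KRT3 and TMPRSS11A had the same lowest library, labelled flank of the 5-month pig (1474 and 7.96 CPM), and the same highest, volar of the 8-month pig (21743 and 44.5 CPM). KLK12 did not follow them: its lowest sole library was volar of the 8-month pig, at 1.99 CPM, and its highest labelled flank of the 5-month pig, at 10.6 CPM.

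**Figure D3:**
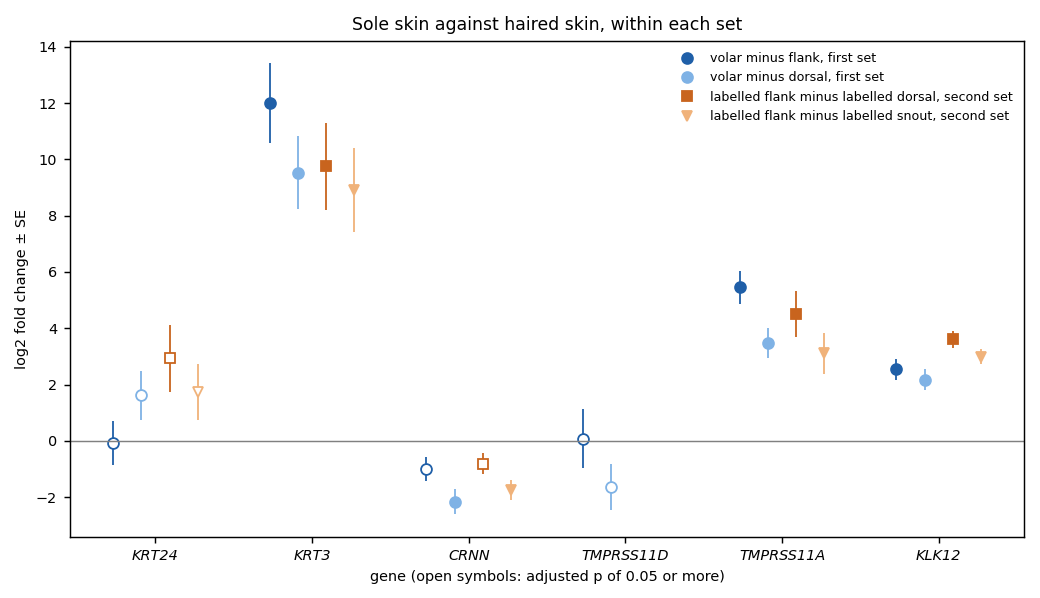
Log2 fold change with its standard error (y axis) of 6 of the genes (x axis) in sole skin over haired skin, in the first set (circles) and in the second set as labelled (squares and triangles); filled symbols have an edgeR adjusted p below 0.05. KRT3, TMPRSS11A and KLK12 sit above 0 in all 4 comparisons. CLDN17, and TMPRSS11D in the second set, are not drawn because a group held 3 counts or fewer. The first-set points of TMPRSS11D rest on 4 counts in volar, 19 in dorsal and 5 in flank, and nothing is read from them.

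Profiles over libraries were alike to different degrees. Pearson r of log2(CPM + 0.5) between KRT24 and TMPRSS11D was 0.997 over the 12 first-set libraries and 0.997 over the 8 second-set ones, between KRT3 and TMPRSS11A 0.963 and 0.931, and between KRT3 and CLDN17 0.278 and 0.0881. KLK12, though raised in the sole, had r of 0.963 and 0.929 with KRT24, against 0.794 and 0.902 with KRT3. These are descriptions, since all libraries of 1 site share the site. The genes whose first-set profile was most like that of KRT24 were SIX3 (r = 0.993), ALX1 (0.991) and PNMT (0.982), and in the second set these had r = 0.998, 0.985 and 0.985. SIX3 is a homeobox gene of the forebrain and eye field. Most like CRNN were PADI1 (r = 0.991 in the first set and 0.966 in the second), LMX1B (0.977 and 0.963) and PNMT (0.960 and 0.955). Most like KRT3 were NCOA4 (0.981 and 0.898), MAPK11 (0.978 and 0.778) and CAPN5 (0.975 and 0.970), and most like TMPRSS11A DBNDD1 (0.977 and 0.927), SLC12A8 (0.970 and 0.867) and MTMR12 (0.970 and 0.961). For KLK12 they were FAM163B (0.985 and 0.979), DOK5 (0.981 and 0.795) and CDK7 (0.979 and 0.979). For CLDN17, SYT1 kept its likeness (0.963 and 0.958), while ADAMTS19 (0.944 and 0.395) and TRPM3 (0.936 and 0.639) were less alike in the second set. TMPRSS11D had the same 3 genes as KRT24.

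Relatives of the 7 genes were read from the same fits. In snout against flank, 7.77% of all genes tested were higher and 5.46% lower. Of the keratins, 2 of 8 other mucosal-type keratins tested were higher in snout than in flank and none lower, with a median log2 fold change of 0.70, against -0.03 for all genes. KRT78, which is found in stratified epithelium, was one: it averaged 145 ± 66.5 CPM in snout and 1.91 ± 0.86 CPM in flank (SD, n = 3 each; log2 fold change 6.23 ± 0.56, edgeR adjusted p = 9.57e-05). Its level in volar was higher still, 1947 ± 212 CPM. KRT4, a marker of esophageal epithelium and the neighbour of KRT3 in the RefSeq annotation of Sscrofa11.1, was at 2.06 ± 1.19 CPM in snout and 1.76 ± 0.84 CPM in flank (log2 fold change 0.22 ± 0.61, edgeR adjusted p = 0.854). KRT23 was at 71.0 ± 45.3 CPM in snout and 80.1 ± 29.5 CPM in flank (edgeR adjusted p = 0.912). KRT13 and KRT76, the other oral keratins, were not analysed here.

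Of 7 other skin keratins tested, 3 were lower and 1 higher in snout than in flank, beside 5.46% and 7.77% of all genes. The 7 were KRT1, KRT2, KRT10, KRT15, KRT77, KRT79 and KRT80, and KRT77 is also among the gland genes. In the second set 2 were lower and 1 higher in labelled volar than in labelled dorsal, beside 5.35% and 7.61% of all genes. Against labelled snout 3 were lower and 1 higher, beside 3.66% and 6.49%. KRT2, a keratin of the upper living layers, averaged 6.28 ± 3.35 CPM in snout and 2673 ± 2690 CPM in flank (log2 fold change -8.73 ± 1.17, edgeR adjusted p = 0.00115). KRT77, a keratin of sweat gland ducts, was also lower, at 0.80 ± 0.33 CPM in snout and 139 ± 61.6 CPM in flank (-7.43 ± 0.86, edgeR adjusted p = 0.000515). KRT1 was lower by a smaller amount (-1.30 ± 0.24, edgeR adjusted p = 0.00546), while its partner KRT10 was higher (2.12 ± 0.26, edgeR adjusted p = 0.000598). In snout against volar, KRT1 was at 3961 ± 735 CPM in snout and 201783 ± 21695 CPM in volar.

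TMPRSS11E and TMPRSS11F went in opposite directions in snout relative to flank. TMPRSS11E averaged 115 ± 31.9 CPM in snout, against 28.4 ± 14.99 CPM in flank (log2 fold change 2.02 ± 0.46, edgeR adjusted p = 0.0166) and 29.6 ± 15.4 CPM in volar (1.96 ± 0.46, edgeR adjusted p = 0.0201). Against dorsal, at 69.0 ± 14.1 CPM, it did not pass (0.76 ± 0.45, edgeR adjusted p = 0.364), nor did labelled volar against labelled snout (0.93 ± 0.34, edgeR adjusted p = 0.1497). TMPRSS11F averaged 1.66 ± 0.85 CPM in snout, against 79.5 ± 39.4 CPM in flank (-5.58 ± 0.75, edgeR adjusted p = 0.00114). It was low in volar too, at 1.37 ± 1.43 CPM. In the second set labelled volar had TMPRSS11E at 136 ± 27.2 CPM and TMPRSS11F at 1.30 ± 0.29 CPM, and labelled dorsal had them at 47.1 ± 24.3 and 34.8 ± 1.35 CPM (SD, n = 2 each; edgeR adjusted p = 0.0324 and 0.000137). TMPRSS11B was nearly absent in all these groups and did not pass the filter on low counts. Of 8 other membrane serine proteases, such as ST14 (matriptase), 2 were higher and 1 lower in snout than in flank, beside 7.77% and 5.46% of all genes.

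Several kallikreins, some of which cut the junctions of corneocytes, were raised in snout and in the sole as well. Volar exceeded flank in 7 of 11 and fell below it in 1, beside 16.9% and 16% of all genes. Of these 11 tested without KLK12, 7 were higher and none lower in snout than in flank (median log2 fold change 2.26), beside 7.77% and 5.46% of all genes. In snout against dorsal 3 were higher and none lower, beside 5% and 2.92% of all genes. Against volar 2 were higher and 3 lower, beside 5.85% and 5.71% of all genes. Among second-set libraries 8 of the 11 were higher in labelled volar than in labelled dorsal, 6 than in labelled snout and 1 than in labelled flank, and 5 were lower than in labelled flank. Of all genes, 7.61% were higher in labelled volar than in labelled dorsal, 6.49% than in labelled snout and 20.9% than in labelled flank. The shares lower were 5.35%, 3.66% and 17.6% in that order. KLK11, beside KLK12 in the RefSeq annotation, averaged 105 ± 16.5 CPM in snout, 134 ± 25.5 in volar and 10.8 ± 9.08 in flank (snout over flank 3.28 ± 0.49, edgeR adjusted p = 0.00189). KLK7, which degrades corneodesmosin, averaged 469 ± 58.0 CPM in snout, 1060 ± 434 CPM in volar and 97.7 ± 39.7 CPM in flank (snout over flank 2.26 ± 0.46, edgeR adjusted p = 0.00973). KLK6 and KLK15 resembled KLK12 in that snout was higher than volar: KLK6 was at 47.7 ± 22.5 CPM in snout and 2.40 ± 0.38 CPM in volar (4.31 ± 0.87, edgeR adjusted p = 0.0111), and KLK15 at 8.30 ± 2.70 CPM in snout and 0.31 ± 0.12 CPM in volar (4.77 ± 0.44, edgeR adjusted p = 0.000146). Unlike KLK12, neither was raised in volar over flank. KLK15, at 5.39 ± 1.72 CPM in flank, was lower in volar (-4.15 ± 0.43, edgeR adjusted p = 8.74e-05). KLK6, at 4.79 ± 3.30 CPM in flank, did not pass (-0.99 ± 0.79, edgeR adjusted p = 0.369). In labelled volar against labelled flank KLK15 did not pass (1.19 ± 0.49, edgeR adjusted p = 0.0938). In the first set 5.71% of genes were lower in snout than in volar.

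Of the 12 other claudins tested, none was higher and 1 lower in snout than in flank, where 7.77% of all genes were higher and 5.46% lower. CLDN23 was the one that was lower, at 6.57 ± 3.15 CPM in snout and 27.7 ± 13.2 CPM in flank (log2 fold change -2.07 ± 0.54, edgeR adjusted p = 0.0297). CLDN8, the neighbour of CLDN17 in the RefSeq annotation, was at 3.72 ± 2.94 CPM in snout and 13.1 ± 3.87 CPM in flank (-1.81 ± 0.57, edgeR adjusted p = 0.0622). In the sole it was near 0, like CLDN17: 0.0064 CPM in volar and no count in labelled flank. TJP3, a scaffold protein of tight junctions, was lower in snout, at 6.06 ± 0.70 CPM in snout and 17.6 ± 8.43 CPM in flank (-1.54 ± 0.30, edgeR adjusted p = 0.00731).

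Among 22 further genes of mucosal and cornifying squamous epithelium, 13 were higher and 1 lower in snout than in flank (median 1.20), 11 and 1 than in dorsal, and 2 and 6 than in volar (median -0.36). Of all genes, 7.77% were higher and 5.46% lower than in flank, 5% and 2.92% than in dorsal, and 5.85% and 5.71% than in volar. The second set gave 15 and 0 for labelled volar against labelled dorsal, 13 and 0 against labelled snout, and 1 and 14 against labelled flank. The shares of all genes there were 7.61% and 5.35%, 6.49% and 3.66%, and 20.9% and 17.6%. PADI1, a peptidylarginine deiminase of differentiating keratinocytes, averaged 526 ± 182 CPM in snout, 3.99 ± 3.38 in volar and 9.91 ± 7.20 in flank, and passed against both (5.73 ± 0.76 over flank and 7.05 ± 0.81 over volar, edgeR adjusted p = 0.00105 and 0.000609). PRSS27, a serine protease of esophagus, was at 36.9 ± 7.91 CPM in snout, 6.60 ± 1.13 in volar and 1.65 ± 0.85 in flank (4.49 ± 0.38 over flank, edgeR adjusted p = 5.78e-05). A2ML1, an alpha-2-macroglobulin-like inhibitor of proteases, was raised in both, at 253 ± 65.9 CPM in snout, 1209 ± 864 in volar and 1.56 ± 0.53 in flank (7.35 ± 0.62 for snout and 9.61 ± 0.68 for volar over flank, edgeR adjusted p = 6.08e-05 and 1.23e-05).

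Of 12 inhibitors and targets of these proteases, 5 were higher and 1 lower in snout than in flank, beside 7.77% and 5.46% of all genes. SPINK5, the kallikrein inhibitor, was at 2514 ± 470 CPM in snout, 2614 ± 751 CPM in volar and 638 ± 273 CPM in flank (snout over flank 1.98 ± 0.31, edgeR adjusted p = 0.00244). F2RL1, a receptor that trypsin-like proteases cut, was the lower gene, at 9.10 ± 0.83 CPM in snout and 38.3 ± 14.1 CPM in flank (-2.08 ± 0.25, edgeR adjusted p = 0.000556). Of 22 regulators of squamous epithelium, 4 were higher and 2 lower in snout than in flank, beside the same shares of all genes, and nothing is read from these counts. EHF, an epithelial ETS factor, was at 147 ± 18.1 CPM in snout, 12.8 ± 3.47 in volar and 49.3 ± 23.1 in flank (1.58 ± 0.32 over flank, edgeR adjusted p = 0.00919), and its labelled volar over labelled dorsal value of 1.58 ± 0.62 did not pass (edgeR adjusted p = 0.154). GATA3, a factor of epidermis and hair follicle, was lower, at 8.38 ± 0.53 CPM in snout and 90.3 ± 46.3 CPM in flank (-3.43 ± 0.42, edgeR adjusted p = 0.000598).

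**Figure D4:**
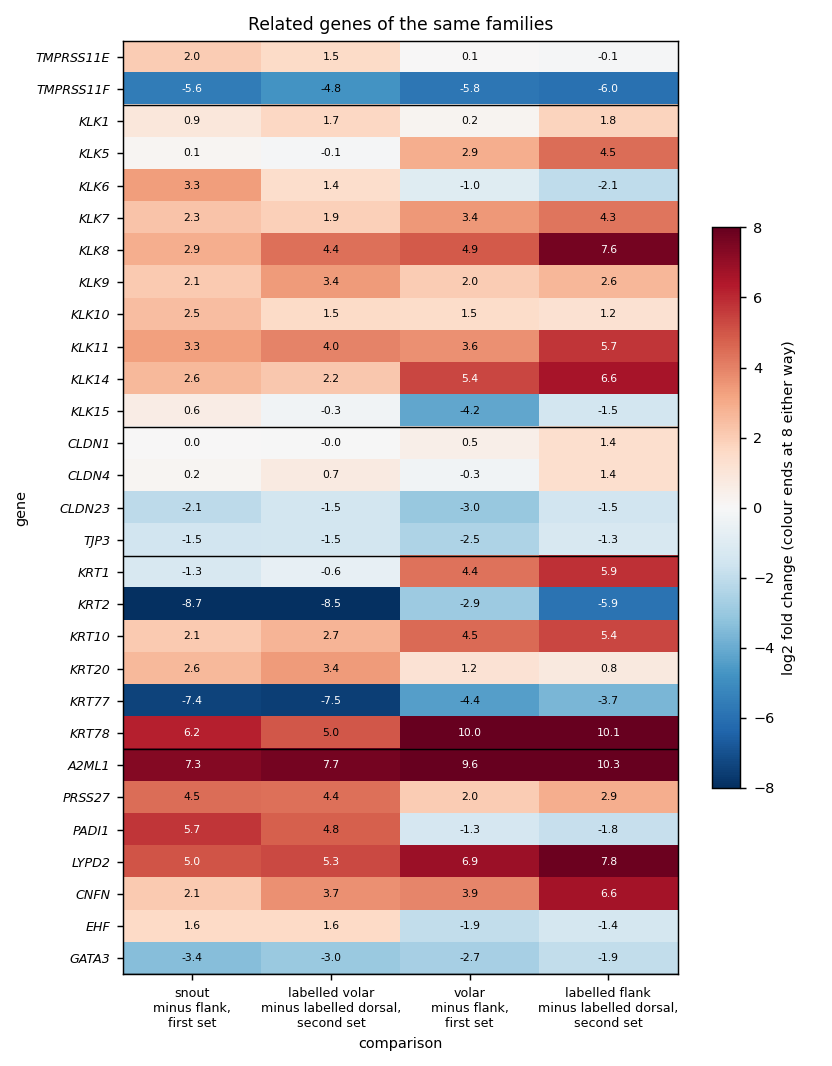
Log2 fold change (colour and printed value) of relatives of the 7 genes and of squamous epithelial genes (rows) in snout over flank, in labelled volar over labelled dorsal, in volar over flank and in labelled flank over labelled dorsal (columns). TMPRSS11F is negative in all 4 columns, while PADI1 and EHF are positive in the first 2 and negative in the last 2.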

How the data were processed

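Expression was measured in skin punch biopsies. The authors deposited estimated counts for Ensembl genes, quantified with Salmon as listed in the submitters' processing notes. The version, build and annotation were not stated in the labels. Non-whole values (42.2%, tolerance 1e-09) were rounded; KRT3, CRNN, TMPRSS11A and KLK12 had them in all 20 libraries, and reads shared with related genes bear on these levels. Symbols matched 14821 of 19280 genes. Totals ran from 34077821 to 66906420 counts, and intervals and floors reflect counting error alone.

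Each set was fitted apart with edgeR 4.0.16 (R 4.3.3): quasi-likelihood F test (robust), TMM, filterByExpr (count minimum 10, total minimum 15), and calls at a Benjamini-Hochberg adjusted p below 0.05. The first set had 15302 genes and 8 residual degrees of freedom, the second 15280 and 4. CPM used TMM factors over all libraries. Libraries of 1 pig are paired by the labels, with deviations from site means correlating at a median of 0.187 in the first set and 0.303 in the second. Alternatives were DESeq2 1.42.0, limma-voom 3.58.1, a pig block, other scalings and filters, and leaving out each library. The 7 genes, the lists and the alternatives were chosen with earlier results of these data known. Other named genes are, per list, up to 4 that passed with the smallest adjusted p in snout over flank, set paralogs, and the 3 most alike in profile per gene; KLK6 and KLK15 were chosen after their values were seen. The code was tested on simulated data. Results for some genes are not reported here.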

Additional observations from a re-analysis of the deposited data

Results flagged for a closer look

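When sites are taken by the deposited labels, the within-pig difference of snout against volar had opposite signs in the 2 sets for all 7 genes. All pigs of one set had the sign opposite to all pigs of the other. For volar against dorsal and volar against flank, this held only for the genes named below. The difference between sets was not tested. Labelled snout over labelled volar in the second set gave mean log2(CPM + 0.5) differences of -14.45 for KRT24, -11.07 for KRT3, -4.94 for CRNN, -7.99 for TMPRSS11D, -5.82 for TMPRSS11A, -6.56 for KLK12 and -2.33 for CLDN17, where the first set gave positive differences. Labelled volar over labelled dorsal gave 5.88 for CRNN, 8.09 for TMPRSS11D and 2.60 for CLDN17, and labelled volar over labelled flank gave 6.60 for CRNN and 5.48 for CLDN17, where the first set gave negative ones.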

How the results depend on the processing

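The number of the 7 genes higher in volar than in flank and than in dorsal stayed at 3 and 3 under every alternative that fitted all 7. All 8 second-set libraries matched the same sites under each of 5 other settings. Without the 20 most abundant genes KRT24 and KRT3 are not among those fitted, so KRT3 drops out of that number, while TMPRSS11A and KLK12 still passed upwards. Of the alternative values of single genes in the first-set sole contrasts, 288 kept their side of the threshold. These include the values of TMPRSS11D, which could hardly change sides because it passed the filter through its snout libraries alone. Direction held for values that passed, but not for all that did not pass. In volar against flank the log2 fold change ran from -0.94 to 1.26 for KRT24. For TMPRSS11D, with 4 counts in volar and 5 in flank, it ran from -1.05 to 0.65, and nothing is read from that range. CLDN17 in volar against flank did not pass with limma-voom (adjusted p = 0.0883). CRNN there passed without the 7-month volar library (-1.61, edgeR adjusted p = 0.0175). The cause was not tested. With the replicate block (pig), 2600 genes were called in snout against flank, 5858 in volar against flank and 4554 in volar against dorsal. The block changed no call of the 7 genes in the first-set volar contrasts. Calls of the 7 genes in the second set were not compared under the alternatives. DESeq2 called 3038, 2044 and 2730 genes in snout against flank, dorsal and volar, against 2024, 1212 and 1768 with edgeR, and 3017 and 2470 in labelled volar against labelled dorsal and labelled snout, against 1981 and 1551. Leaving out 1 library gave 1263 to 2136 genes in snout against flank, 597 to 1370 against dorsal and 1025 to 2009 against volar. It gave 2360 to 4051 in volar against dorsal, 693 to 1903 in labelled volar against labelled dorsal, 464 to 1651 against labelled snout and 3554 to 6046 against labelled flank, and 4023 to 6634 in labelled flank against labelled snout. Counts moved by over 1.5 times in snout against flank without the 4-month or 8-month snout, in snout against dorsal without any 1 snout or dorsal library, in snout against volar without the 7-month snout or volar, and in volar against dorsal without the 7-month dorsal library. In the second set they did so without either labelled volar or the 5-month labelled snout or labelled dorsal (labelled volar against labelled dorsal), either labelled volar or labelled snout (labelled volar against labelled snout), the 5-month labelled volar (against labelled flank) and either labelled snout (labelled flank against labelled snout). The most alike genes depend on the measure: with Spearman correlation 0 of the 3 for KRT24 were shared. CLDN17 in the sole and TMPRSS11D outside the snout rest on a few counts, which limits their precision.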
